A study of Saccharomyces cerevisiae with 18 samples.

Results

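The genes described here encode the proteins of the cytoplasmic ribosome of Saccharomyces cerevisiae. They were chosen by name among the probe sets that read a single yeast gene: symbols of the form RPL or RPS with a number and an optional A or B, together with the stalk genes RPP0, RPP1A, RPP1B, RPP2A and RPP2B. 127 genes met the rule, of 5449 genes with a single-gene probe set on the array. Of these, 52 encode proteins of the small (40S) subunit and 75 proteins of the large (60S) subunit. On all 18 arrays each of the 127 exceeded the background limit, and they stand among the 5355 genes tested. The family has 137 genes in RefSeq's list, and the other 10, among them RPL1A, had no single-gene probe set under their own names and were not analysed here.

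RNA was hybridised to 18 Affymetrix yeast arrays, 1 per sample, from 3 strains that the labels call ethanol tolerant: a diploid, a haploid labelled a and a haploid labelled alpha. Each strain was grown in fermentors in rich medium with glucose that held 0%, 3% or 7% ethanol by volume, and was sampled in mid-exponential phase. Strains and levels make 9 groups of 2 samples. The labels give no further genotype and do not say whether the 2 samples came from separate cultures, so the errors and p-values below measure only the spread between these samples.

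Ribosomal proteins are made in equal numbers for assembly with ribosomal RNA in the nucleolus, and in budding yeast their messages are among the most abundant in a growing cell. Transcription of the genes is coordinated by Rap1, Fhl1, Ifh1, Sfp1 and Hmo1 under the control of the TOR and protein kinase A pathways, and it follows growth rate. Most of the proteins are encoded by a pair of duplicated genes, A and B, whose products are identical or nearly so, and in some pairs the protein represses a gene of its own pair through splicing or decay of its message.

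The deposited signals carry no stated scaling, so every change is given under a scaling of each array to the same 2% trimmed mean (trimmed-mean scaling) and to the same median (median scaling). The factors of the 2 scalings moved apart with ethanol: median over trimmed mean, their log2 ratio was -0.24 to -0.032 on the 6 arrays at 7% and -0.0035 to 0.21 on the 6 at 0%. Changes are log2 differences of the scaled signal plus 16, ± SE of a limma fit, with p-values adjusted by Benjamini-Hochberg over all genes tested and a threshold of 0.05. A gene is said to have risen or fallen, or to be higher or lower, where it passed that threshold. A signal is a share of the RNA on the array. In bulk RNA, fewer cells that carry a message and less of it per cell cannot be told apart.

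Over the ribosomal protein genes, paired arrays differed with an SD of 0.07 to 0.14, and the ACT1 probes gave a 3' over 5' ratio of 1.09 to 1.30. The 18S rRNA control ranged from 430.6 to 1456 in scaled signal and differed between paired arrays too, with 478.6 and 964.8 in the strain labelled a at 7% and 1217 and 471.8 in the strain labelled alpha at 3%. The strain labelled a carried the alpha-specific message MF(ALPHA)1, the pheromone alpha factor, at 4670 ± 359, against 4390 ± 424 in the strain labelled alpha (SD, n = 6 arrays each). STE2, the receptor that marks a cells, was at 26.2 ± 4.7 in the strain labelled a, against 25.4 ± 5.25 in the strain labelled alpha. Since these levels are at odds with its label, the wording "the strain labelled a" is kept throughout.

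The ribosomal protein messages were bright and made up 13.8% to 16.8% of the summed signal of each array. Their median position was the 97.1th percentile of the signals, and 99 of the 127 lay in the top 5%. RPS31, which encodes a fusion of ubiquitin with a 40S protein, had scaled signals of 5032 to 5733 at 7% ethanol and 4944 to 5663 at 0%. RPL41A, which encodes the shortest ribosomal protein, stood lowest on the arrays, with signals of 17.78 to 167.4.

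At 7% ethanol the ribosomal protein messages stayed close together while the rest of the transcriptome moved. Averaged over the strains, the change at 7% against 0% had an SD of 0.17 across the 127 genes, where it was 0.57 across all 5355 genes. Of the 127, 122 lay within 0.25 of their own median. With trimmed-mean scaling the median change was 0.037 and 25 genes rose and 7 fell (limma), where 48.4% of all genes rose and 22.2% fell. With median scaling the median was -0.18, and 0 rose and 97 fell, where 31.4% of all genes rose and 40% fell. RPL22A and RPL34B rose under the one scaling and fell under the other.

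Most members lay below the median change of all genes. Both scalings multiply whole arrays, so a gene's place relative to that median is nearly fixed between them, and like counts under both are no sign of stability. The median change of all genes was 0.13 with trimmed-mean scaling and -0.052 with median scaling. The change of 111 of the 127 members lay below that median under trimmed-mean scaling and that of 116 under median scaling, where 50% of all genes do by construction. The count of rises was 16 without replicate 2 of the strain labelled a at 0%, and the count of falls was 4 without replicate 1 of the strain labelled a at 7%. Without the strain labelled a, 4 genes fell.

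**Figure D1:**
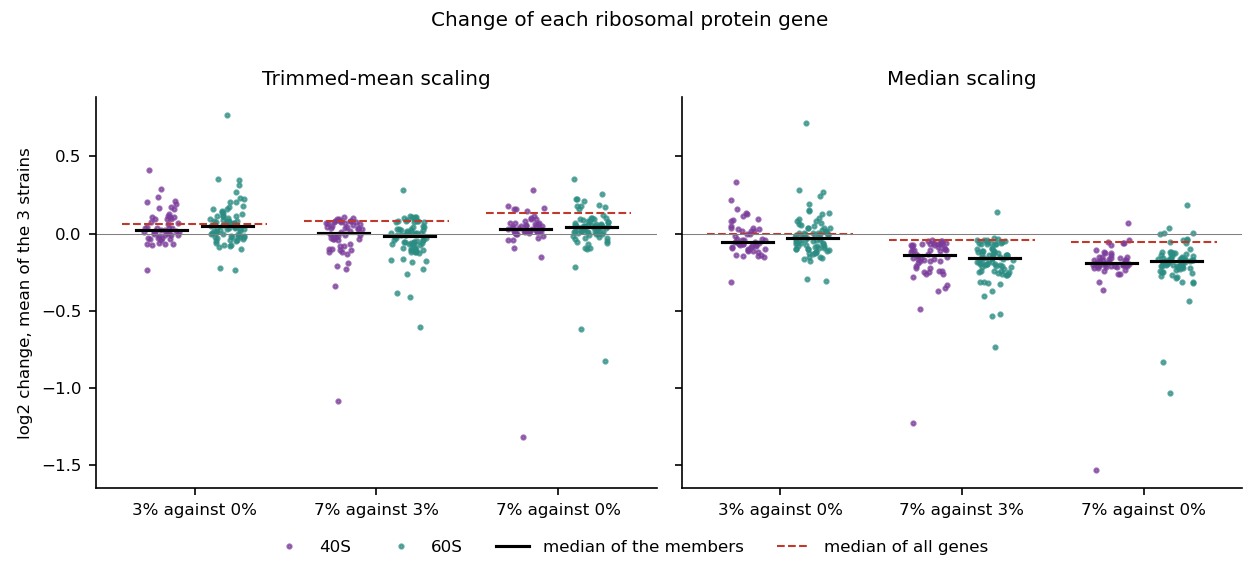
Change of each ribosomal protein gene, as the mean of the 3 strains, on a log2 scale. Each point is 1 gene of the 40S or 60S subunit (left and right in each pair of columns), the black bars are their medians and the dashed line is the median of all 5355 genes. The points form a narrow band that stands at 0.037 at 7% against 0% with trimmed-mean scaling and at -0.18 with median scaling, with RPS14B, RPL15B and RPL4B far below it.

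Above a common lower limit of signal, genes outside the family moved more than the members. Of the genes outside the family, 229 had a mean signal of at least 2054, the level that 114 members reached. Above that limit the genes were not matched to the members in level. Whether the arrays understate changes in the brightest signals was not tested. In these 229 the SD of the change at 7% against 0% was 0.45, and 41 changed by 0.5 or more, against an SD of 0.061 and 0 genes among the 114 members. The median change of the 229 was -0.006 with trimmed-mean scaling and -0.23 with median scaling. Across the 127 genes, Spearman's rho between level and size of change was -0.36, a description over genes measured on the same arrays.

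7 ribosomal protein genes fell at 7% against 0% under both scalings: RPS14B, RPL15B, RPL4B, RPL22B, RPS9A, RPL15A and RPS0A. None rose under both. Median scaling put the changes at 7% lower than trimmed-mean scaling did, as in the medians of all genes above. A fall with trimmed-mean scaling was thus nearly bound to pass with median scaling, and that both agree is no added support. Over all genes, 22.2% fell and 31.4% rose under both. 4 of the 7 are the B genes with the largest falls, and their A partners had changes of -0.10 to 0.089 with trimmed-mean scaling. These 4 B genes were among the dimmest members, with mean scaled signals of 271 to 1174, against 3414 to 4166.5 for their partners. RPL18B and RPL9B, next in level at 1338.5 and 1470.9, did not fall. Whether level bears on these changes was not tested.

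RPS14B (YJL191W), one of the genes for a protein of the 40S platform and a textbook case of a message repressed by its own protein, fell most. Its scaled signals at 7% ethanol were 662.2 and 657 in the diploid, 516.3 and 488.1 in the strain labelled a, while the strain labelled alpha had 694.9 and 728.2. At 0% they were 1553 and 1803 in the diploid, 1403 and 1378 in the strain labelled a, while the strain labelled alpha had 1669 and 1609. The 6 arrays at 7% lay far below all 12 others, with no overlap under either scaling. The change was -1.32 ± 0.043 (2.49-fold lower, adjusted p = 4.26e-16), and -1.53 ± 0.053 with median scaling. At 3% ethanol the signals were 1229 to 1468 and the change against 0% was -0.23 ± 0.043 (adjusted p = 0.000196), so most of the fall came between 3% and 7% (-1.08 ± 0.043). By strain, the change at 7% against 0% was -1.32 in the diploid, -1.44 in the strain labelled a, against -1.19 in the strain labelled alpha, each ± 0.075.

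RPS14A, the partner gene, ranged from 3833 to 4651 at 7% and from 3808 to 4270 at 0%. The groups overlapped, and its change was 0.058 ± 0.038 (adjusted p = 0.184). The ratio of A to B within an array is nearly free of the scaling, and it changed by 1.37 ± 0.052 (adjusted p = 4.72e-15). It changed in the same direction in the diploid (1.40), the strain labelled a (1.43) and the strain labelled alpha (1.30), each ± 0.091.

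RPL15B (YMR121C), a gene for a core protein of the 60S subunit, had signals of 159.2 to 241 at 7%, with a median of 179.1, and of 255.6 to 391 at 0%, with a median of 360.1. The groups did not overlap. It changed by -0.82 ± 0.065 (1.77-fold lower, adjusted p = 5.97e-10), and by -1.03 ± 0.061 with median scaling. RPL15A, its partner, changed by -0.10 ± 0.045 (adjusted p = 0.0486), with signals of 2654 to 3843 at 7% and 3178 to 3900 at 0% that overlapped. By strain, RPL15A changed by -0.335 in the strain labelled a, against -0.132 in the diploid, while the strain labelled alpha had 0.163. With trimmed-mean scaling RPL15A fell only in the strain labelled a. The ratio of A to B changed by 0.72 ± 0.077 (adjusted p = 5.45e-08).

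RPL4B (YDR012W), a gene for a protein that lines the exit tunnel of the 60S subunit, had signals of 294.9 to 565.1 at 7%, with a median of 530.3, and of 448.1 to 1021 at 0%, with a median of 746.6. The ranges overlapped across the strains, and within each strain both arrays at 7% lay below both at 0%. The change was -0.62 ± 0.094 (1.53-fold lower, adjusted p = 7.5e-06). The probe set of RPL4A shares probes with related sequences, and it changed by -0.007 ± 0.042.

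RPL22B (YFL034C-A), whose splicing is inhibited by the Rpl22 protein, changed by -0.22 ± 0.071 (adjusted p = 0.00928), against 0.089 ± 0.039 for RPL22A. Its signals were 456.3 to 619.6 at 7% and 524.7 to 750.4 at 0%, which overlapped, and without replicate 1 of the strain labelled a at 7% the change was -0.15 (adjusted p = 0.0507). RPS9A, whose splicing also depends on the level of its protein, changed by -0.15 ± 0.057. RPS0A, a gene for another 40S protein, changed by -0.091 ± 0.033. By strain, RPS0A changed by -0.287 in the strain labelled a, against 0.017 in the diploid, while the strain labelled alpha had -0.004. With trimmed-mean scaling RPS0A fell only in the strain labelled a, so its fall was not shared by the strains.

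**Figure D2:**
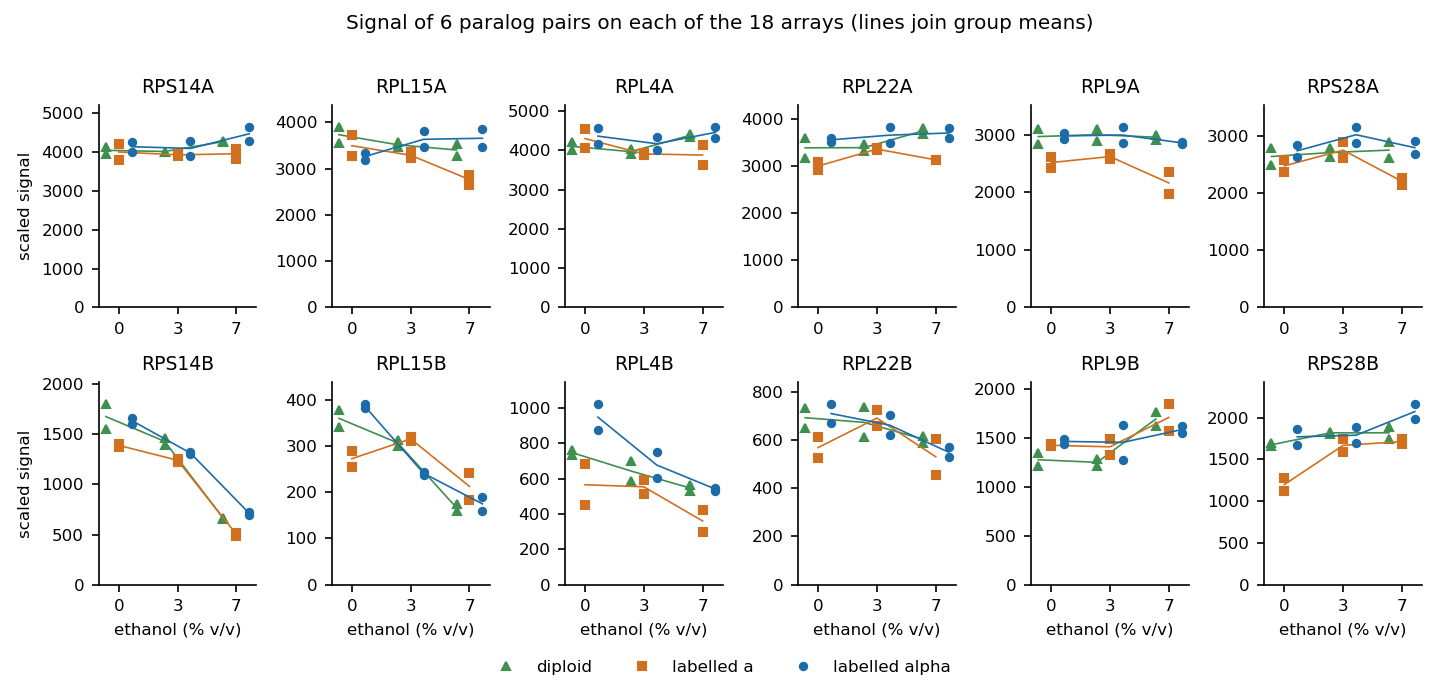
Scaled signal (trimmed-mean scaling) of the A gene (top) and B gene (bottom) of 6 pairs on each of the 18 arrays, against ethanol in the medium, with lines through the group means and axes from 0. RPS14B lies at 488.1 to 728.2 on the 6 arrays at 7% and at 1378 to 1803 at 0%, while RPS14A stays between 3808 and 4651 on the same arrays.

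Among the 50 pairs with both genes measured, the A and B genes changed unequally at 7% against 0% in 17, or 34%, and 13 of these passed under median scaling too. Of all genes and pairs tested together, 70.3% were called. The ratio of A to B was higher at 7% in 6 pairs, among them RPS14, RPL15, RPL4, RPL22 and RPL12, and lower in 11. The 11 include RPL9 (-0.35 ± 0.061), RPS28, whose protein controls decay of the RPS28B message (-0.31 ± 0.063), and RPS9 (-0.25 ± 0.079). RPL11, which binds 5S rRNA with Rpl5, changed by -0.23 ± 0.055. The median size of the change in the ratio was 0.08 over the 50 pairs. With the strain labelled a left out, 3 pairs had a lower ratio. At 3% against 0% the ratio changed in 15 of the 50 pairs, where 49.1% of all genes and pairs were called, and at 7% against 3% in 12, where 56% were. RPS19 (0.42 ± 0.094), RPL33 (-0.28 ± 0.052), RPL14 (-0.27 ± 0.073) and RPL36 (0.23 ± 0.053) changed most at 3%. None of these ratios passed in the diploid alone, and RPL14 and RPL36 passed only in the strain labelled a.

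Several B genes of the pairs with a lower ratio rose with trimmed-mean scaling only. RPS28B had signals of 1687 to 2163 at 7%, with a median of 1819, against 1123 to 1865 at 0%, with a median of 1668. The ranges overlapped, and the change was 0.29 ± 0.047 (adjusted p = 1.77e-05). RPL9B had 1545 to 1842 at 7% and 1207 to 1487 at 0%, with no overlap, and a change of 0.26 ± 0.058. RPL14B changed by 0.23 ± 0.054 and RPL18B by 0.22 ± 0.078. With median scaling these 4 had changes of 0.066, 0.039, 0.006 and 0.005, and none passed. RPL18B also missed the threshold without replicate 2 of the strain labelled a at 7% (0.18, adjusted p = 0.0588), replicate 2 of the strain labelled alpha at 0% (0.19, adjusted p = 0.0536) or replicate 2 of the diploid at 7% (0.17, adjusted p = 0.0692).

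**Figure D3:**
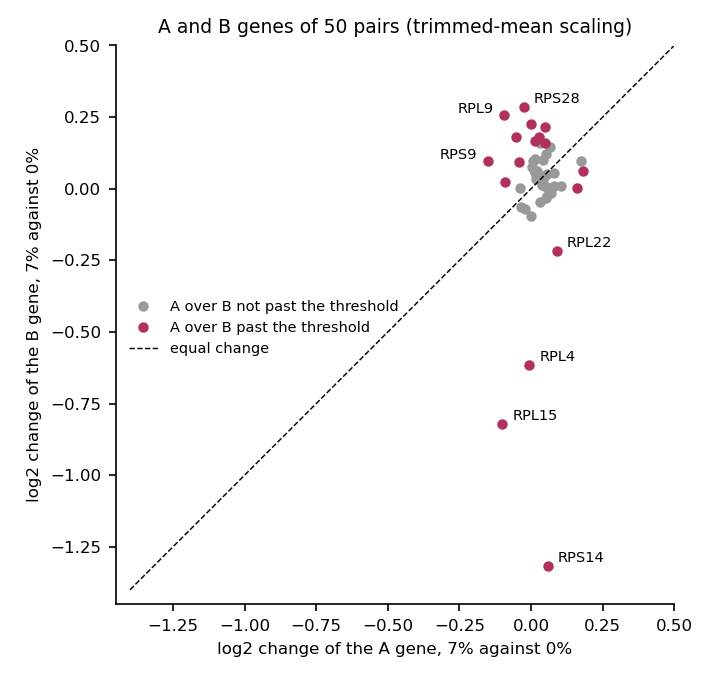
Log2 change of the B gene against that of the A gene at 7% against 0% ethanol, mean of the 3 strains, for 50 pairs. Red points are the 17 pairs whose ratio of A to B passed the threshold, and the dashed line marks equal change. RPS14, RPL15, RPL4 and RPL22 lie below the line, with the B gene at -1.32, -0.82, -0.62 and -0.22.

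The 40S and 60S genes had nearly equal median changes. At 7% against 0% the median change was 0.031 for the 52 40S genes and 0.044 for the 75 60S genes with trimmed-mean scaling, and -0.19 and -0.18 with median scaling. Of the 40S genes 9 rose and 3 fell, and of the 60S genes 16 rose and 4 fell. The difference of the medians, 40S minus 60S, was -0.012 at 7% against 0%, -0.026 at 3% against 0% and 0.018 at 7% against 3%. On single arrays that difference ranged from -0.016 to 0.031, where the median of the whole family ranged from -0.17 to 0.14. These differences were not tested. By copy number, the median change at 7% against 0% was 0.033 for 54 A genes, 0.048 for 55 B genes and 0.034 for the 18 genes without a copy letter, with SDs of 0.076, 0.25 and 0.044.

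Messages for the proteins of the stalk, which recruits the elongation factors to the 60S subunit, changed little at 7% against 0% with trimmed-mean scaling. RPP0, its base, had a change of 0.034 ± 0.044 at 7% against 0%. RPP1A, RPP1B, RPP2A and RPP2B had changes of 0.030, -0.047, 0.010 and 0.067, and none passed with trimmed-mean scaling. With median scaling these 5 genes had changes of -0.27 to -0.15 and all fell. The genes that encode ubiquitin fusions, RPS31, RPL40A and RPL40B, had changes of 0.018, 0.000 and -0.095 at 7% against 0%, none past the threshold. With median scaling they had -0.20, -0.22 and -0.32, and all 3 fell. In the strain labelled a alone RPL40B fell (-0.193 ± 0.081, adjusted p = 0.0429). At 7% against 3%, averaged over the strains, RPL40B fell by 0.175 ± 0.047 (adjusted p = 0.00344). It fell there with median scaling too, while RPS31 and RPL40A passed under neither scaling.

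At 3% ethanol the family moved by small amounts, and a few of its genes rose. With trimmed-mean scaling 32 of the 127 rose and 3 fell against 0%, where 32.1% of all genes rose and 17.3% fell. With median scaling 9 rose and 9 fell, where 23.1% and 24.6% of all genes did. The median change was 0.037 and -0.040 under these scalings, and 0.063 and -0.003 over all genes. Without the strain labelled a, 11 rose, and without replicate 2 of that strain at 0%, 8 fell.

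The 9 genes that rose at 3% under both scalings were RPL11B, RPL18B, RPL33B, RPL34A, RPL36A, RPL41A, RPS7B, RPS10A and RPS19A. Over all genes, 23.1% rose under both. Median scaling put the changes at 3% lower as well, so a rise with it was nearly bound to pass with trimmed-mean scaling. Likewise, a fall with trimmed-mean scaling was nearly bound to pass with median scaling. RPL34A, a 60S protein, had signals of 2239 to 2649 at 3% against 1557 to 2364 at 0%, with medians of 2502 and 1952. The ranges overlapped, and the change was 0.36 ± 0.049 (adjusted p = 7.83e-06). RPL33B, with 2250 to 2657 at 3% and 1712 to 2363 at 0%, changed by 0.32 ± 0.045. RPS19A, a 40S protein needed for maturation of 18S rRNA, had 2239 to 3469 at 3% and 1621 to 2508 at 0% and changed by 0.41 ± 0.10 (adjusted p = 0.00258). RPL36A changed by 0.27 ± 0.047.

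RPL18B changed by 0.35 ± 0.078 on its own probe set, while a brighter set that shares probes with related sequences changed by -0.041. The call of RPL41A (0.77 ± 0.25, adjusted p = 0.0138) rested on dim signals of 72.82 to 167.4 at 3% and 17.78 to 121.8 at 0%. It was lost without replicate 1 of the strain labelled a at 0% (0.62, adjusted p = 0.0563), replicate 2 of the strain labelled alpha at 3% (0.62, adjusted p = 0.0549) or replicate 2 of the diploid at 0% (0.46, adjusted p = 0.0597), and without the whole strain labelled a (0.47, adjusted p = 0.24).

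The rises at 3% were tested for a difference between the strains. RPL34A changed by 0.12 ± 0.085 in the diploid, 0.60 ± 0.085 in the strain labelled a, against 0.35 ± 0.085 in the strain labelled alpha. The diploid's change was lower than the mean of the haploids by 0.36 ± 0.10 (adjusted p = 0.0358). RPL36A (-0.39, adjusted p = 0.0162) and RPL33B (-0.34, adjusted p = 0.0294) also differed. In this contrast 0 of 127 members had a higher and 4 a lower change in the diploid, where 4.05% and 5% of all genes did. With median scaling 1 of the 4 members kept its call, and RPL34A, RPL36A and RPL33B did not.

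Within single strains at 3% against 0%, 1 member rose and 1 fell in the diploid, where 12.5% and 7.97% of all genes did: RPL31B rose and RPS14B fell. With median scaling 0 rose and 1 fell there, where 10.4% and 10.3% of all genes did. In the strain labelled a 24 rose and 0 fell, where 31.6% and 12% did, and with median scaling 6 rose and 17 fell, where 17.8% and 24.5% did. Without replicate 2 of that strain at 0%, 14 rose and 2 fell. In the strain labelled alpha 9 rose and 3 fell, where 12.6% of all genes did in each direction, and with median scaling 4 rose and 2 fell, where 13.1% and 11.9% did. The 9 were 2 without replicate 2 at 0% or replicate 2 at 3%. The 3 that fell in the strain labelled alpha were RPL15B (-0.65 ± 0.11), RPL4B (-0.48 ± 0.16) and RPS14B (-0.32 ± 0.075).

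RPS14B, RPL15B and RPL4B fell at 3% against 0% under both scalings, by 0.23, 0.22 and 0.23 on the log2 scale with trimmed-mean scaling, where 17.3% of all genes fell under both. With a covariate for 18S rRNA, a setting chosen after seeing the data, RPL15B changed by -0.16 (adjusted p = 0.0723) and RPL4B by -0.23 (adjusted p = 0.093), and neither passed. The fall of RPL4B was also lost in 11 of the 18 fits that left out an array, and was -0.14 (adjusted p = 0.206) without replicate 1 of the strain labelled a at 0%.

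With all strains averaged, more members fell than rose between 3% and 7%. With trimmed-mean scaling 8 rose and 21 fell, where 37.9% of all genes rose and 18.3% fell. The share of the family that fell thus lay near that over all genes. Without the strain labelled a, more members rose than fell under that scaling. With median scaling 0 rose and 69 fell, where 23.4% and 32.5% did. All 21 fell with median scaling too, but it again put the changes lower, and this agreement is no added support. RPL34A (-0.18 ± 0.049), RPL36A (-0.23 ± 0.047), RPS10A (-0.21 ± 0.077) and RPS19A (-0.34 ± 0.10), which had risen at 3% against 0%, were among the 21. The 2 comparisons share the arrays at 3%. At 7% the median signals of RPL34A and RPS19A were 2359 and 2228, against 2502 and 2610 at 3% and 1952 and 1997 at 0%. RPL9B changed by 0.28 ± 0.058 between 3% and 7% (adjusted p = 0.000379), against 0.14 (adjusted p = 0.0933) with median scaling.

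The count of 21 was 13 without replicate 1 of the strain labelled a at 7%, 13 without replicate 2 of the strain labelled alpha at 3%, 12 without replicate 2 of the diploid at 3%, and 8 without the strain labelled a. The 8 rises included RPL5, which carries 5S rRNA, at 0.11 ± 0.043, RPS3, at the messenger entry of the 40S subunit, at 0.11 ± 0.038, and RPP0 at 0.11 ± 0.044. With median scaling these 3 were at -0.029, -0.038 and -0.038, with adjusted p of 0.705, 0.587 and 0.626. Leaving out single arrays ended the call of RPP0 in 11 of 18 fits, of RPL5 in 6 and of RPS3 in 5. The number of rises ranged from 1 to 13 over those fits.

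Within the strains, the fall of RPS14B at 7% against 0% passed the test in all 3 strains. In the diploid 19 of 127 members rose and 3 fell, where 36.6% of all genes rose and 19.9% fell. With median scaling 0 rose and 11 fell there, where 25.2% and 31.8% did. Besides RPS14B, RPL15B and RPL4B fell (-1.04 ± 0.11 and -0.44 ± 0.16), and the largest rises were RPL9B (0.40 ± 0.10), RPL18B (0.35 ± 0.14) and RPL11B (0.29 ± 0.068). The 19 rises were 7 without replicate 1 of the diploid at 0% and 6 without replicate 2 at 7%.

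In the strain labelled a 4 members rose and 9 fell, where 48.4% of all genes rose and 15.1% fell. With median scaling 0 rose and 114 fell, where 26.7% and 35.1% did. The largest falls after RPS14B were RPL4B (-0.62 ± 0.16) and RPL15B (-0.35 ± 0.11), and the largest rise was RPS28B (0.51 ± 0.081). Without replicate 1 of that strain at 0% the falls were 4 and without replicate 2 at 0% they were 22.

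In the strain labelled alpha 10 members rose and 4 fell, where 26.9% of all genes rose and 19.9% fell, and with median scaling 1 rose and 4 fell, where 22.1% and 23.5% did. The 4 falls were RPS14B, RPL15B (-1.08 ± 0.11), RPL4B (-0.79 ± 0.16) and RPL22B (-0.36 ± 0.12). RPS22B, a 40S protein, rose under both scalings, with signals of 2106 and 2343 at 7% against 1672 and 1643 at 0% and a change of 0.42 ± 0.079 (adjusted p = 0.000202). Neither pair of arrays overlapped the other. The 10 rises were 4 without replicate 2 at 0% and 2 without replicate 2 at 7%.

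**Figure D4:**
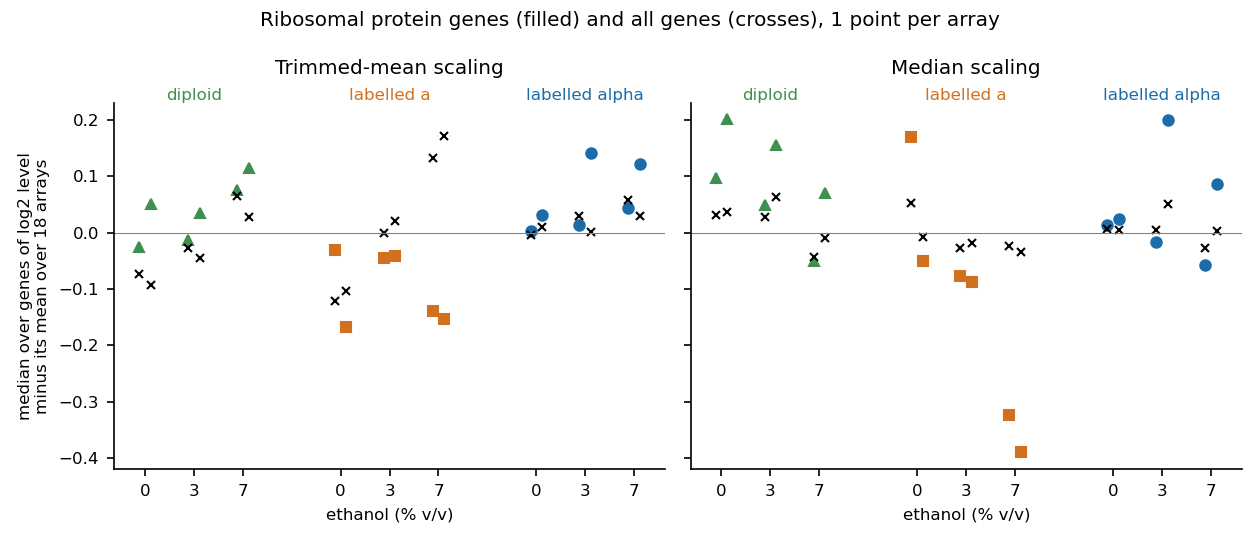
Median over the 127 ribosomal protein genes (filled symbols) and over all genes (crosses) of the log2 level minus its mean over the 18 arrays, for each array, by strain and ethanol level under both scalings. With median scaling the 2 arrays of the strain labelled a at 7% stand at -0.32 and -0.39, and with trimmed-mean scaling at -0.14 and -0.15, while the crosses of these 2 arrays stand at -0.023 and -0.034, and at 0.13 and 0.17.

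The pair RPL15 changed differently in the haploid strains. RPL15B had signals of 184.3 and 241 at 7%, against 255.6 and 290 at 0%, in the strain labelled a, while they were 189.3 and 160.4 at 7%, against 381.7 and 391 at 0%, in the strain labelled alpha. Its change at 7% against 0% was higher in the strain labelled a by 0.73 ± 0.16 (adjusted p = 0.00173), and by 0.45 with median scaling (adjusted p = 0.0269). The signals of RPL15A were 2654 and 2869 at 7%, against 3719 and 3266 at 0%, in the strain labelled a, and they were 3465 and 3843 at 7%, against 3339 and 3178 at 0%, in the strain labelled alpha. The difference in its change was -0.50 ± 0.11 (adjusted p = 0.00178).

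The ratio of RPL15A to RPL15B changed by 0.010 ± 0.13 at 7% in the strain labelled a, against 1.24 ± 0.13 in the strain labelled alpha, a difference of -1.23 ± 0.19 (adjusted p = 8.66e-05). It changed by 0.91 ± 0.13 in the diploid. At 3% the difference between the haploids was -1.09 ± 0.19 (adjusted p = 0.000779), from a change of -0.29 ± 0.13 in the strain labelled a, against 0.80 ± 0.13 in the strain labelled alpha. These differences share the arrays at 0%, where RPL15B differed by -0.48 ± 0.11 between the strain labelled a and the strain labelled alpha (adjusted p = 0.00157). For RPS14 the corresponding difference in the ratio at 7% was 0.13 ± 0.13 (adjusted p = 0.454).

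Between the haploids 2 members had a higher and 9 a lower change at 7% in the strain labelled a, where 30.6% of all genes had a higher and 7.34% a lower one. With median scaling 1 had a higher and 80 a lower change, where 12.8% and 21.1% of all genes did. RPS0A and its copy RPS0B were among those lower under both scalings, each with a difference of -0.28 under trimmed-mean scaling. The count of 9 was 2 without replicate 1 of the strain labelled a at 0% or replicate 2 of the strain labelled alpha at 7%, and 18 without replicate 2 of the strain labelled a at 0%. Leaving out replicate 2 of the strain labelled a at 7% or replicate 2 of the strain labelled alpha at 0% gave 5. The change of the diploid differed from the mean of the haploids at 7% in 1 member, RPL31B (0.31 ± 0.090, adjusted p = 0.0351), where 4.82% of all genes had a higher and 4.43% a lower change. It differed in 0 with median scaling, where 4.8% and 4.78% did.

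Averaged over the ethanol levels, the diploid had slightly higher ribosomal protein messages than the mean of the haploids, of which the strain labelled a was the lower. 30 of 127 were higher and 0 lower with trimmed-mean scaling, where 15.8% of all genes were higher and 24.6% lower. With median scaling 58 were higher and 0 lower, where 25.1% and 16.7% were. The median difference was 0.058 and 0.13 under these scalings, and -0.034 and 0.028 over all genes. With trimmed-mean scaling the median of the family on single arrays ranged from -0.025 to 0.115 in the diploid, from -0.167 to -0.030 in the strain labelled a, and from 0.002 to 0.141 in the strain labelled alpha. The arrays of the diploid and of the strain labelled alpha overlapped, and the diploid was not tested against the strain labelled alpha alone. RPS22B was 2297 ± 133 in the diploid, against 1882 ± 94.4 in the strain labelled a, while it was 1952 ± 271 in the strain labelled alpha (SD, n = 6 arrays each), and was higher by 0.26 ± 0.040 (adjusted p = 2.45e-05). RPS1A, another 40S gene, was higher by 0.24 ± 0.047, and RPL33B by 0.19 ± 0.039. By level, 8 members were higher in the diploid at 0% (7.41% of all genes), 3 at 3% (13.2%), where 1 was lower, and 37 at 7% (8.63%). With median scaling the counts were 9 at 0% (11%), 6 at 3% (20%) and 30 at 7% (11.9%). Under both scalings the share of the family that was higher in the diploid exceeded that over all genes at 7% only. At 0% and 3% it lay below.

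Averaged over the levels, the strain labelled a had lower ribosomal protein messages than the strain labelled alpha. 100 of 127 were lower and 0 higher with trimmed-mean scaling, where 34.2% of all genes were lower and 27.8% higher. With median scaling 79 were lower and 0 higher, where 35.2% and 26.6% were. On the values as deposited, with no scaling, 4 were lower and 1 higher. The median difference was -0.16 and -0.17 under the 2 scalings, and -0.038 and -0.052 over all genes. RPS0A averaged 2610 ± 247 in the strain labelled a, against 3300 ± 82.2 in the strain labelled alpha (SD, n = 6 each), with ranges of 2297 to 2846 and 3235 to 3459 that did not overlap, though they did with median scaling. It was lower by 0.34 ± 0.033 on the log2 scale (adjusted p = 2.2e-08). RPL4B was lower by 0.54 ± 0.094 and RPS7B by 0.35 ± 0.040.

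By level, 35 members were lower in the strain labelled a at 0% with trimmed-mean scaling and 5 with median scaling, where 34.8% and 23.8% of all genes were. At 3% the counts were 17 and 10, where 17.6% and 20.9% of all genes were. At 7% they were 89 and 110, where 17.2% and 27.2% of all genes were. As shares of the family, the counts at 0% and 3% lay below those over all genes under both scalings, and the counts at 7% lay above them.

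**Figure D5:**
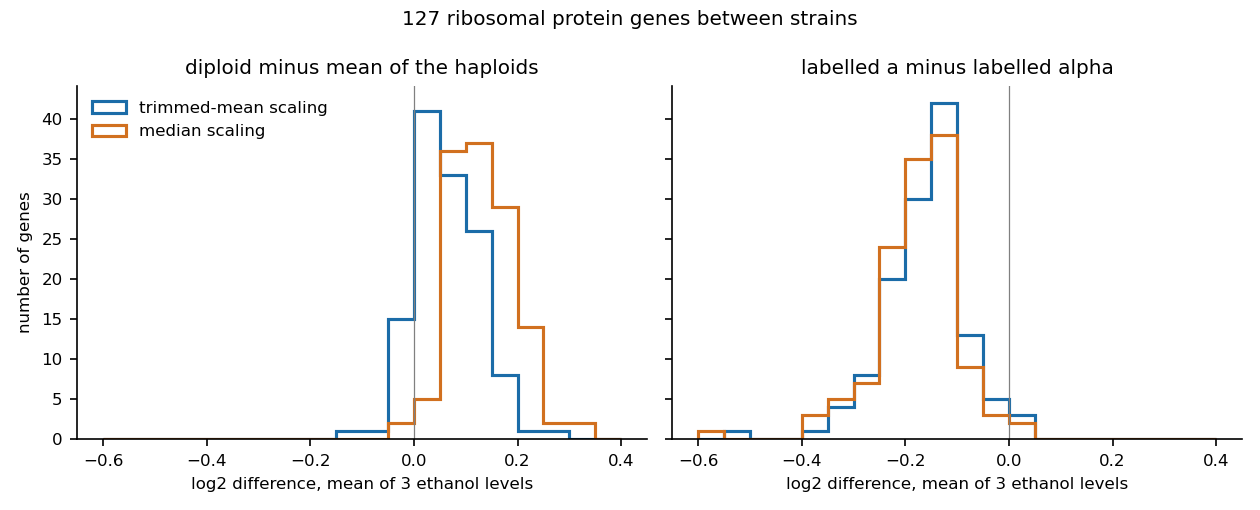
Distribution over 127 ribosomal protein genes of the log2 difference between strains, averaged over 0%, 3% and 7% ethanol, under trimmed-mean (blue) and median (orange) scaling. For the diploid minus the mean of the haploids 110 and 125 genes lie above 0 under these scalings, with medians of 0.058 and 0.13, and for the strain labelled a minus the strain labelled alpha 124 and 125 lie below 0, with medians of -0.16 and -0.17.

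Genes that assemble ribosomes rose at 7%, while the elongation factors had a median change near that of the ribosomal proteins. Over all genes 48.4% rose and 22.2% fell with trimmed-mean scaling, and 31.4% rose and 40% fell with median scaling, and the counts of each list are read against these shares. Of 54 ribosome assembly factors 54 rose at 7% against 0% and 0 fell, with a median change of 1.32, and 53 rose with median scaling, with a median of 1.13. ARX1, an export factor of the 60S subunit, changed by 2.18 ± 0.060, and TIF6, which keeps the new 60S subunit from joining early, by 0.24 ± 0.072, which did not pass with median scaling (0.021). At 3% against 0%, 52 of the 54 rose and the median was 0.48. Of 26 initiation factors 21 rose and 1 fell, and of 11 elongation factors 5 rose and 0 fell, with medians of 0.31 and 0.066, against 0.037 for the ribosomal proteins. The share of elongation factors that rose was near that over all genes. With median scaling 12 initiation factors rose and 4 fell, and 2 elongation factors rose and 6 fell. Of 55 mitochondrial ribosomal proteins 49 rose and 1 fell (median 0.45), and 36 rose and 2 fell with median scaling (median 0.24).

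Chaperones that escort single ribosomal proteins include SYO1, RRB1, YAR1 and PUF6, and these 4 rose at 7% against 0% under both scalings. The 4 were named after their values were seen and do not stand for the whole list. Of 18 listed chaperones, which include general ones of the nascent chain, 12 rose and 1 fell at 7%, where 48.4% and 22.2% of all genes did. With median scaling 12 rose and 5 fell, where 31.4% and 40% did. SYO1, which imports Rpl5 with Rpl11, changed by 2.10 ± 0.073, against 0.038 for RPL5, -0.051 for RPL11A and 0.18 for RPL11B. RRB1, the chaperone of Rpl3, changed by 1.33 ± 0.060, against 0.000 for RPL3. YAR1, the chaperone of Rps3, changed by 1.31 ± 0.056, against 0.033 for RPS3. PUF6, which binds Rpl43, changed by 2.05 ± 0.088, against 0.003 for RPL43A and 0.077 for RPL43B. With median scaling SYO1 changed by 1.95, YAR1 by 1.10 and PUF6 by 1.85, and RRB1 passed too. There RPL5 (-0.18), RPL11A (-0.27), RPL3 (-0.22), RPS3 (-0.19), RPL43A (-0.22) and RPL43B (-0.14) fell. RPL11B, which rose with trimmed-mean scaling, had -0.038. BTT1, a subunit of the nascent chain complex, was the gene that fell, by 0.23 ± 0.065 on the log2 scale.

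Regulators of the ribosomal protein genes changed in both directions. Of 22, 11 rose and 7 fell at 7% against 0%, where 48.4% and 22.2% of all genes did, and 7 rose and 9 fell with median scaling, where 31.4% and 40% did. The shares that rose lay near those over all genes under both scalings. RAP1, the general activator of the promoters, changed by -0.60 ± 0.060, HMO1 by -0.38 ± 0.053 and SFP1 by -0.31 ± 0.064. IFH1 and FHL1, the co-activator and its anchor, changed by 0.73 ± 0.074 and 0.54 ± 0.089, and TOD6, a repressor of ribosome biogenesis genes, by 1.72 ± 0.077. These 6 had the same direction and passed with median scaling. The lists, of which the assembly factors had been described from these data before, were tested gene by gene and not as sets.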

How the data were processed

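The deposited values are a signal intensity per probe set of the Affymetrix yeast array, made by the authors with GCOS, per the submitters' processing notes. Neither its version nor a scaling target is given in the sources used here. Each array was scaled to the same 2% trimmed mean of the S. cerevisiae single-gene probe sets, or to the same median, and 16 was added before log2. The background limit was the 95th percentile of the probe sets of the other yeast on the array, and a gene needed to exceed it on at least 2 arrays. A gene with several probe sets (20 members) was read on the one without shared probes. 9 members, among them RPL4A and RPL41A, had a shared set only. 12 symbols were updated through RefSeq names. A mean for each of the 9 groups was estimated from all 18 arrays together by limma 3.58.1 (R 4.3.3; eBayes with an intensity trend), two-sided. The change of A over B was fitted as a further row for each of the 50 pairs, adjusted together with all genes, and only changes of that ratio are read, never levels. The fit was tested on simulated data. Genes named in full were the 4 largest rises and falls per ethanol contrast, up to 8 called under both scalings, the 6 pairs with the largest changes, the 3 largest per strain contrast in each direction, the stalk and the ubiquitin fusions; others named were chosen after their values were seen. Single results of a few members are not reported here, while counts over the family include them. The members and lists were chosen with earlier results of these data known. Replicate numbers did not pair the samples: deviations of same-numbered arrays correlated at -0.25 to 0.18 over 36 pairs of groups. Signal over background and the number of arrays limit the precision.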

Additional observations from a re-analysis of the deposited data

Results flagged for a closer look

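The change with ethanol differed between strains for the following genes and pairs, by limma's test of the difference of changes, with log2 differences given. At 7% against 0% the strain labelled a had a higher change than the strain labelled alpha for RPL15B (0.73) and RPL11B (0.27). It had a lower one for RPL15A (-0.50), RPL20A (-0.34), RPL29 (-0.34), RPS22B (-0.32), RPS0A (-0.28), RPS0B (-0.28), RPL5 (-0.27), RPS21A (-0.23) and RPL16A (-0.22). The A to B ratio differed for RPL15 (-1.23), RPS28 (-0.48), RPS27 (0.39) and RPL11 (-0.36). Their adjusted p ranged from 8.66e-05 to 0.0482. With median scaling RPL15B and the 9 genes with a lower change kept their calls and RPL11B did not. Of the ratios, RPL15 and RPS28 kept theirs, while RPS27 (adjusted p = 0.0741) and RPL11 (adjusted p = 0.0968) did not.

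At 3% against 0% the strain labelled a had a higher change than the strain labelled alpha for RPL15B (0.85), RPS28B (0.46), RPS27A (0.34) and RPL11B (0.33). The ratios of RPL15 (-1.09), RPS28 (-0.45), RPS27 (0.43) and RPS7 (-0.39) differed as well. Of these genes only RPL15B passed with median scaling, and of these ratios only RPL15. Over all 5355 genes, 348 had a higher change in the strain labelled a at 3% under both scalings.

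The diploid's change differed from the mean of the haploids for RPL31B at 7% against 0% (0.31). At 3% against 0% it differed for RPL36A (-0.39), RPL34A (-0.36) and RPL33B (-0.34). These 4 genes did not pass with median scaling, and 1 other member with a lower change in the diploid at 3%, not reported by name, did.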

How the results depend on the processing

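The reading of the family's direction depended on the scaling, and each group rests on 2 arrays. Of 878 recomputed counts and median differences, 761 stayed within 1.5 times or the spread of the main value and 117 did not; of 644 recomputed single-gene changes, 569 kept direction and call, 71 lost the call and 4 reversed. The reversals were RPL5 (-0.029), RPP0 (-0.038) and RPS3 (-0.038) at 7% against 3% with median scaling, and RPL18B (-0.041) at 3% against 0% on its brightest, shared probe set. The causes were not tested. Counts under settings other than trimmed-mean and median scaling, here and above, are given without the share over all genes. They show how the calls moved, and not how the family stood against all genes.

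With median scaling, members higher and lower numbered 0 and 97 at 7% against 0%, 9 and 9 at 3% against 0%, and 0 and 69 at 7% against 3%. At 7% against 0% they were 0 and 11 in the diploid and 0 and 114 in the strain labelled a, with 1 higher in the strain labelled alpha. At 3% against 0% the counts were 0 higher in the diploid, 6 higher and 17 lower in the strain labelled a, and 4 higher in the strain labelled alpha. The diploid was higher than the haploids in 58 members and its change at 7% higher in 0, and the change at 7% of the strain labelled a was higher than that of the strain labelled alpha in 1 and lower in 80. With quantile normalization 52 were higher at 7% and 53 at 3% against 0%, 15 at 7% against 3%, and 12 pairs had a higher A to B ratio at 7%. The falls under quantile normalization are not given here, so these counts are not read as a rise of the family.

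On the values as deposited, members higher and lower were 2 and 18 at 7% against 0% and 0 and 47 at 7% against 3%, with 16 higher at 3%. Pairs with a lower ratio were 5, 4 and 3 at 7% against 0%, 3% against 0% and 7% against 3%, and 2 had a higher ratio at 3% against 0%. Within strains at 7% the counts were 1 higher and 7 lower in the diploid, 2 and 4 in the strain labelled a, and 0 higher in the strain labelled alpha. At 3% they were 0 lower in the diploid, 13 higher in the strain labelled a and 5 higher in the strain labelled alpha. The diploid was higher in 18, the strain labelled a higher in 1 and lower in 4, and differences in the change at 7% fell to 0 for the diploid and 1 lower for the strain labelled a. With a trimmed mean that leaves out the members, 1 rose at 7% against 3%.

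Without the strain labelled a, 4 members fell at 7% against 0% and 3 pairs had a lower ratio; at 3% against 0%, 11 rose, 2 pairs had a lower ratio and the 40S minus 60S difference was -0.008; at 7% against 3%, 24 rose and 8 fell. With 18S rRNA as a covariate, added after seeing the data, 5 fell at 3% against 0%, 16 rose at 7% against 3%, and at 3% 2 fell in the strain labelled a and 0 rose in the diploid. The brightest probe sets, also added later, gave 8 pairs with a lower ratio at 7% against 3%, and means in place of medians a 40S minus 60S difference of 0.003. The replicate block gave 24 higher and 7 lower at 7% against 0%, and 1 member with a lower change in the diploid than in the haploids; it ended the calls of RPL4B at 3% against 0% (adjusted p = 0.0539) and RPP0 at 7% against 3% (adjusted p = 0.054) and changed no other call among the named genes. Of 36 correlations between groups, 11 were over 0.1.

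Leaving out each array in turn, members higher ranged from 16 to 33 at 7% against 0%, 24 to 41 at 3% against 0% and 1 to 13 at 7% against 3%, and members lower from 4 to 10, 2 to 8 and 12 to 30. At 7% against 0% within strains, members higher were 6 to 24 in the diploid and 2 to 14 in the strain labelled alpha, and members lower 4 to 22 in the strain labelled a. At 3% against 0% members higher were 0 to 3 in the diploid, 14 to 26 in the strain labelled a and 2 to 12 in the strain labelled alpha, and members lower 0 to 1 in the diploid and 0 to 2 in the strain labelled a. The diploid was lower in 0 to 1; its change at 7% was higher in 0 to 2 and lower in 0 to 1, and that of the strain labelled a against the strain labelled alpha higher in 1 to 2 and lower in 2 to 18. The 40S minus 60S difference ranged from -0.041 to -0.010 at 3% against 0% and from 0.016 to 0.035 at 7% against 3%.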
